A study of Rattus norvegicus with 4 samples.

Results

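Subunit genes of the oxidative phosphorylation complexes were described in glomeruli of 4 male Wistar rats given Adriamycin. Members were the protein-coding genes whose symbols begin with Mt-, Uqcr or Atp5, with Ndufa, Ndufb, Ndufc, Ndufs or Ndufv and a digit, or with Cox4 to Cox8, and Sdha to Sdhd. The rule found 92 of the 13261 genes used, of which 13 are mitochondrially encoded and 79 nuclear, and no expression value entered it. Adriamycin (ADR, doxorubicin) is an anthracycline used in rats to injure podocytes, the filtering epithelial cells of the glomerulus, and was given intravenously. Kidneys were sieved for glomeruli, and polyadenylated RNA was sequenced. The animals' age, the dose and the harvest day that applied to them are not given in the sources used here. Control rats and the puromycin groups that the protocol also describes were not analysed here, so all comparisons are between animals or between genes of a single group. Replicate numbers 1 to 4 are names only, and the spread between these samples may be partly technical.

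Oxidative phosphorylation couples electron transport across the inner mitochondrial membrane to ATP synthesis. Complexes I and II pass electrons from NADH and succinate to ubiquinone, complex III passes them to cytochrome c, complex IV reduces oxygen, and complex V, the ATP synthase, uses the proton gradient. Mitochondrial DNA encodes a hydrophobic core of complexes I, III, IV and V, transcribed as long polycistronic RNAs. All other subunits, and the whole of complex II, are transcribed in the nucleus. In the kidney, the proximal tubule and thick ascending limb are especially rich in mitochondria.

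Promoters of the nuclear members were searched for known motifs, since NRF1, GABPA (an ETS factor) and YY1 are known regulators of respiration genes. RefSeq windows (GRCr8) from 250 bases before to 50 after the annotated start were matched by symbol for 66 of the 77 nuclear symbols. Motifs were read on both strands. The YY1 motif AAGATGGC stood in 15 of 66 (22.7%), against 5.80% of windows of genes in the expression table and 3.58% of all windows, and 13 of the 15 matches began within 40 bases of the start. The NRF1 motif, GCGC, any base, then TGCGC, stood in 13 of 66 (19.7%), against 10.2% of windows of genes in the expression table and 4.95% of all windows. The ETS motif CCGGAAGT stood in 8 of 66 (12.1%), against 8.45% of windows of genes in the expression table and 4.16% of all windows. At least 1 of these motifs stood in 32 of the 66 windows, or 48.5%, against 21.8% and 11.5%, so most members' windows held none, and no test of these shares was run. The GC box GGGCGG, by contrast, stood in 26 of 66 (39.4%), against 63.3% of windows of genes in the expression table and 35.9% of all windows. The CCAAT box stood in 20 of 66 (30.3%), against 37.8% of windows of genes in the expression table and 37.8% of all windows. The letters TATAAA stood in 5 of 66 (7.58%), against 6.42% of windows of genes in the expression table and 14.3% of all windows. A match describes the letters and is not a shown binding site. To show where such matches lie, a window is given for a member of each complex, from 250 bases before the start to 20 after it, 5′ to 3′ along the gene, with matches to the NRF1, ETS and YY1 motifs in capitals.
Ndufs1, chr9:72073586-72073855, minus strand: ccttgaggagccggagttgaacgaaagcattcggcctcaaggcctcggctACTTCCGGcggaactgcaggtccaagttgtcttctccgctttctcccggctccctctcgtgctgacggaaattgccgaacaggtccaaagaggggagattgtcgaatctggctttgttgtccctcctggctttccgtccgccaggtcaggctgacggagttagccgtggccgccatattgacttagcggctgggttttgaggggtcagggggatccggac
Sdha, chr1:30764303-30764572, plus strand: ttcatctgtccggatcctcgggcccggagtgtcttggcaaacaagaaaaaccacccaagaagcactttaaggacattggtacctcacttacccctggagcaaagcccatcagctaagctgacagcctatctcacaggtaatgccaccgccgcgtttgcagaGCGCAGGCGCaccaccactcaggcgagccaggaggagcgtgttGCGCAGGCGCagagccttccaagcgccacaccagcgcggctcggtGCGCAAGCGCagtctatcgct
Uqcrc1, chr8:118467973-118468242, plus strand: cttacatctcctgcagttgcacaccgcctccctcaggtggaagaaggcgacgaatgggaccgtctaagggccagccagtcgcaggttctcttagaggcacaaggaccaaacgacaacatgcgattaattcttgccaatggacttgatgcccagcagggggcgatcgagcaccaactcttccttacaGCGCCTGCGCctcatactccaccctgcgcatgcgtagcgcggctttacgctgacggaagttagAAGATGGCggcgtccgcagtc
Cox8a, chr1:213833604-213833873, minus strand: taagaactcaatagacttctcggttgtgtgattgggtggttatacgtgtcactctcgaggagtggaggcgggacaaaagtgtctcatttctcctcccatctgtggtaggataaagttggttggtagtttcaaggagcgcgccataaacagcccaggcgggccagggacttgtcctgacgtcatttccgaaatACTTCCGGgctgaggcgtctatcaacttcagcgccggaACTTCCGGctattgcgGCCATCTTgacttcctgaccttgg
Atp5po, chr11:44657464-44657733, minus strand: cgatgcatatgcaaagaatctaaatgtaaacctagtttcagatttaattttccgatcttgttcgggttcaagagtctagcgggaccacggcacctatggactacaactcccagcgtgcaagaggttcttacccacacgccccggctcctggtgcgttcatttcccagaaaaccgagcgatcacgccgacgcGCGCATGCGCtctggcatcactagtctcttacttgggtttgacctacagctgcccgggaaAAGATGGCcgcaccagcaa
In Uqcrc1 the NRF1 match begins 64 bases before the start and the YY1 match 1 base before it. In Atp5po the NRF1 match begins 59 bases before the start and the YY1 match at position 2. Sdha holds 3 NRF1 matches, Cox8a holds 2 ETS matches and a YY1 match, and Ndufs1 holds an ETS match. In replicate 3 the median deviation from the gene mean (log2) was -0.11 for members with a YY1 match and -0.12 without it. It was -0.12 and -0.11 for NRF1, and -0.15 and -0.11 for ETS.

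Mitochondrially encoded and nuclear subunits had different orders of animals. The mitochondrially encoded mRNAs took 7.46%, 12.5%, 9.34% and 7.56% of reads in replicates 1 to 4, a highest-to-lowest fold of 1.68. The nuclear subunit genes together took 1.12%, 1.06%, 0.938% and 1.03%, a fold of 1.19. Replicate 2 was thus highest for the mitochondrial genome and replicate 3 lowest for the nuclear genes. The 95% Wilson intervals, which cover counting error only, did not overlap between animals within either set. The nuclear shares are of a total that includes the mitochondrial reads, so they also move with the mitochondrial share. With mitochondrial genes left out of the total, the nuclear genes' median deviation from the gene mean (log2) was 0.03, 0.10, -0.11 and -0.04 in replicates 1 to 4. Replicate 3 stayed lowest, and replicate 2 then stood above replicate 1.

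**Figure D1:**
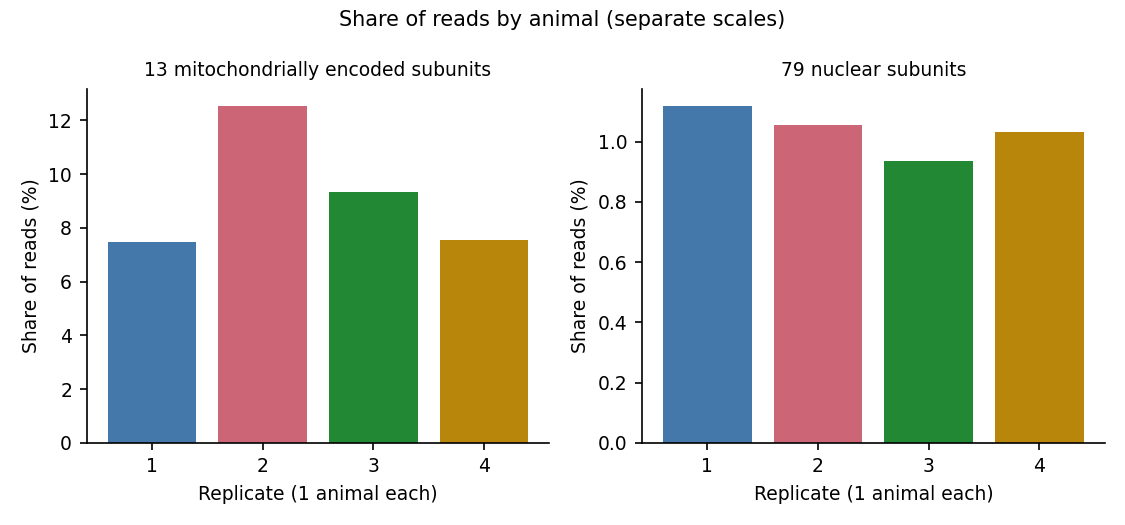
Share of reads (%) taken by the mitochondrially encoded and the nuclear subunit genes in each animal. Replicate 2 is highest for the mitochondrially encoded genes at 12.5%, and replicate 3 is lowest for the nuclear genes at 0.938%.

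All 13 mitochondrially encoded genes were highest in replicate 2, where 21.3% of all genes were highest. For 12 of the 13, replicate 3 came next and replicates 1 and 4 were lowest, an order that 11% of all genes had. The exception was Mt-atp8, which was lowest in replicate 3. Most of these genes are transcribed together, so they are not independent observations. Mt-co1, the catalytic core of complex IV, had 24347, 39881, 29167 and 24001 CPM (reads scaled to the library's total over the listed genes) in replicates 1 to 4. Mt-cyb, cytochrome b and the only complex III subunit of this genome, had 7843, 12203, 9114 and 7566 CPM. In both, replicates 1 and 4 lay close together and below replicate 3. Mt-nd1, a complex I membrane subunit, had 4553, 8325, 6112 and 4995 CPM, and Mt-nd5, another, had 3388, 5686, 4512 and 3153 CPM. Mt-atp6, a proton channel subunit of complex V, had 8437, 14543, 10840 and 8834 CPM. The fold between highest and lowest animal ran from 1.61 for Mt-cyb to 2.06 for Mt-co2, with Mt-nd2, Mt-nd3, Mt-nd4, Mt-nd4l, Mt-nd6 and Mt-co3 between them. CPM take no account of transcript length, so a difference between genes below is in reads, and only its change between animals is described.

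The nuclear subunits spread less. Their fold between highest and lowest animal ran from 1.05 to 1.55 and was under 1.5 for 78 of 79 genes. Their median SD (log2) was 0.12, against 0.18 over all genes and 0.35 over the mitochondrially encoded ones. Without replicate 2, the mitochondrially encoded median was 0.19. Replicate 3 was the lowest animal for 53 of the 79 (67.1%), where it was lowest for 19.6% of all genes. It was below the gene mean for 69 of the 79, against 42.4% of all genes. Replicate 3 was highest for 3 of the 79, against 29.6% of all genes. At the deposited scaling the falling order of replicates 1, 2, 4 and 3 held for 13, against 5.1% of all genes. That order needs replicate 1 above replicate 2, which depends on the scaling. The highest animal was replicate 1 for 34 genes and replicate 2 for 30, against 27.7% and 21.3% of all genes. With mitochondrial genes left out of the total these 2 counts became 22 and 45, against 23.9% and 30.9% of all genes under that scaling. No order is therefore given for replicates 1 and 2 over the set. Highest animals named for single genes below are at the deposited scaling, and where replicates 1 and 2 lie close they can change places. The count lowest in replicate 3 lay between 48 and 58 under the other scalings.

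**Figure D2:**
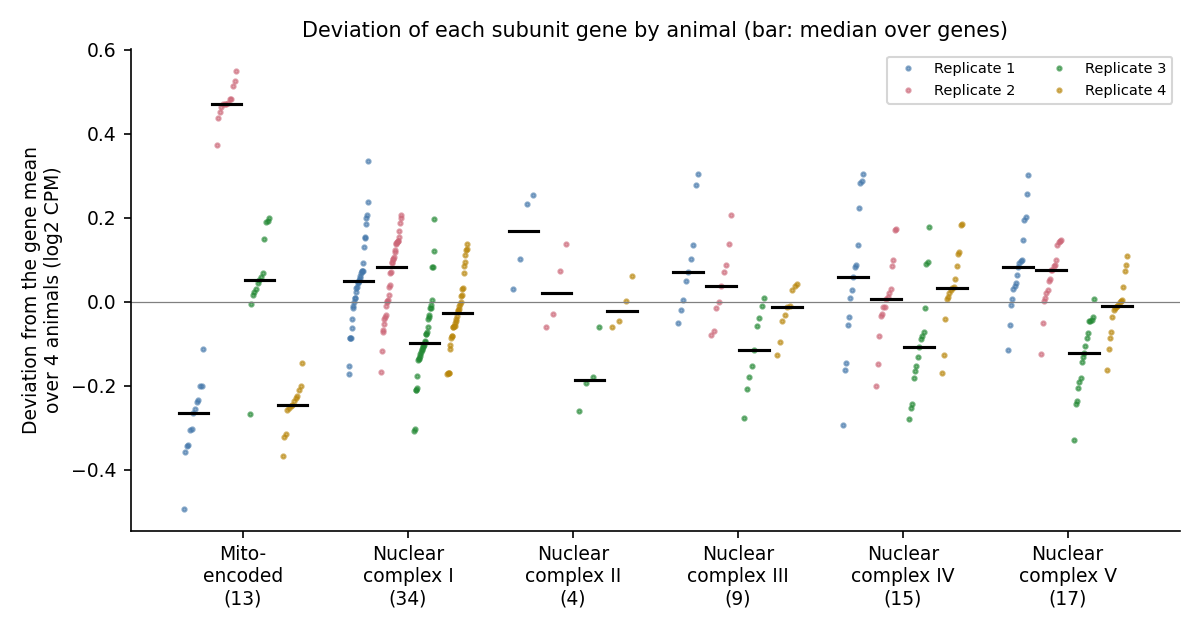
Deviation of each subunit gene from its own mean over 4 animals (log2 CPM), by animal and complex. Points are genes, bars are medians, and the number of genes is in parentheses. Mitochondrially encoded genes peak in replicate 2 (median 0.47), and the nuclear genes of each complex have their lowest median in replicate 3 (-0.10 to -0.19).

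Complex II, which has no mitochondrially encoded subunit, had a median deviation of -0.19 in replicate 3, the lowest of the 5 complexes. All 4 of its genes were lowest there. Sdha, the flavoprotein that oxidizes succinate, had 398, 319.6, 291 and 334 CPM in replicates 1 to 4, and Sdhc, a membrane anchor, had 187, 167, 133 and 154 CPM. Both were highest in replicate 1. Sdhb, the iron-sulfur subunit, had 125, 128, 103 and 112 CPM. Sdhd, the other anchor, was the most even of the 4, with 117, 113, 110.4 and 120.0 CPM and an SD of 0.05 (log2).

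In complex I, 19 of 34 nuclear genes were lowest in replicate 3. The median deviation there was -0.10 for the 7 core subunits, most of which carry the flavin, iron-sulfur clusters or quinone site. It was -0.09 for the 27 accessory subunits. Ndufs1, a core subunit with several iron-sulfur clusters, had the largest SD of the nuclear set, 0.26. Its values were 174, 135, 112 and 138 CPM, highest in replicate 1 and lowest in replicate 3. Ndufv1, which binds NADH and flavin, had 177, 186, 160.2 and 162 CPM, with replicates 1 and 2 above replicates 3 and 4. Ndufa5, an accessory subunit, was the most even gene of the complex, at 46.7, 44.9, 45.02 and 43.1 CPM (SD 0.05). Only Ndufb7 and Ndufa12, both accessory subunits, were highest in replicate 3 within the complex. Ndufb7 had 61.8, 76.9, 79.7 and 61.9 CPM, with replicates 2 and 3 above replicates 1 and 4. Ndufa12, the least read nuclear gene of the complex, had 19.7, 18.02, 20.5 and 17.4 CPM.

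In complex III, 6 of 9 nuclear rows were lowest in replicate 3 and the other 3 in replicate 4. Uqcrc2, a core protein, varied most, with 138, 107, 92.6 and 115 CPM. Uqcrc1, its partner core protein, had 228, 210.5, 196 and 217 CPM. Uqcrfs1, the Rieske iron-sulfur protein, had 153, 149, 121 and 139 CPM. All 3 were lowest in replicate 3 and, at the deposited scaling, highest in replicate 1. With mitochondrial genes left out of the total, 3 instead of 6 of the 9 rows were highest in replicate 1, and 6 instead of 3 in replicate 2. Uqcrq, a small accessory subunit, was the most even nuclear member, with 83.00, 84.9, 82.2 and 80.9 CPM and an SD of 0.03. The symbol Uqcrb, a small subunit, stands on 2 rows. ENSRNOG00000024967 had 40.98, 45.7, 41.8 and 38.05 CPM and ENSRNOG00000032204 had 48.6, 37.9, 36.03 and 38.8 CPM. The rows put different animals at the top, and reads of near-identical copies could be split between them, so both are uncertain.

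In complex IV, 11 of 15 nuclear rows were lowest in replicate 3. Ndufa4, named for complex I but a subunit of complex IV, had 174, 138, 116 and 141 CPM. Its paralog Ndufa4l2, known as a hypoxia-induced gene, had 38.1, 37.1, 48.3 and 48.5 CPM. Their log2 difference was 2.19, 1.89, 1.26 and 1.54 in replicates 1 to 4, smallest in replicate 3. Cox4i1, the general isoform of subunit 4, had 546, 500.2, 448 and 502 CPM. Cox4i2, an isoform known from lung and oxygen-sensing cells, had 3.83, 4.998, 5.02 and 5.12 CPM, from as few as 52 reads. Replicate 1 was highest for Cox4i1 and lowest for Cox4i2. Cox5b had 142, 125, 97.99 and 107 CPM, and Cox7c had 286, 211, 209 and 239 CPM. Cox7a2l, which takes part in joining complexes III and IV into supercomplexes, had 77.8, 88.05, 92.1 and 87.5 CPM and was the only nuclear gene of complex IV highest in replicate 3. Cox6a1, the general isoform of subunit 6a, had 299, 309, 289 and 332 CPM, and Cox8a had 198, 177, 165 and 212 CPM. Both were highest in replicate 4 and lowest in replicate 3. Cox6b1 stands on 2 rows, at 149 ± 6.37 CPM (SD, n = 4; ENSRNOG00000024309) and 20.1 ± 1.97 CPM (SD, n = 4; ENSRNOG00000034161), with the same uncertainty as for Uqcrb.

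In complex V, 13 of 17 genes were lowest in replicate 3. Atp5f1b, the catalytic beta subunit of the F1 head, had 1521, 1330, 1118 and 1354 CPM, and Atp5f1a, the alpha subunit, had 883, 741, 628 and 729.7 CPM. Their log2 difference stayed within 0.78 to 0.89. All 4 peripheral stalk genes, which hold the head still, were lowest in replicate 3, with a median deviation of -0.14. Atp5pb, subunit b of that stalk, had 77.7, 57.8, 55.5 and 63.2 CPM. Atp5mc1, Atp5mc2 and Atp5mc3 encode the same mature rotor subunit c, and all 3 were lowest in replicate 3. Atp5mc1 had 145, 129, 110.1 and 126 CPM. Atp5mc2 had 147, 139, 136 and 153 CPM, and Atp5mc3 had 225, 217, 191 and 208 CPM. At the deposited scaling the 3 copies differed in their highest animal, which was replicate 4 for Atp5mc2 and replicate 1 for the others. With mitochondrial genes left out of the total, 4 instead of 8 genes of the complex were highest in replicate 1, and 12 instead of 8 in replicate 2. Among the small membrane subunits, Atp5mg was the most even gene of the complex, with 139.8, 146, 136 and 141 CPM, and Atp5md was the least read, with 8.62, 8.21, 6.19 and 8.40 CPM. Atp5if1, which inhibits the enzyme when the proton gradient collapses and is not a subunit, had 121, 133, 118 and 112 CPM and was lowest in replicate 4.

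The ratio of mitochondrially encoded to nuclear reads within an animal does not depend on how libraries are scaled. Over all members there were 6.67, 11.9, 9.96 and 7.32 mitochondrially encoded reads per nuclear subunit read in replicates 1 to 4, and the log2 ratio had a mean of 3.12 ± 0.39 (SD, n = 4). With the median log2 value of each side in place of summed reads the mean was 5.96, so the level of the ratio rests on the summary chosen. In complex I the log2 ratio was 2.87, 3.63, 3.37 and 2.98. In complex III it was 2.96, 3.65, 3.40 and 3.02. Both complexes had replicate 2 highest, then replicates 3, 4 and 1. In complex IV it was 4.04, 4.91, 4.60 and 4.13, and in complex V it was 1.04, 1.92, 1.69 and 1.24, in the same order of animals. The fold between replicates 2 and 1 was 1.70 in complex I, 1.61 in complex III, 1.82 in complex IV and 1.84 in complex V. The ratio's level also depends on how many genes of which length stand on each side, so levels were not compared between complexes. For the same reason a log2 ratio of 0 has no fixed meaning. The two-sided exact sign-flip permutation test against 0 gave p = 0.125 for each of the 5 ratios (0.125 after adjustment), the smallest p that 4 animals allow, and nothing is read from it.

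**Figure D3:**
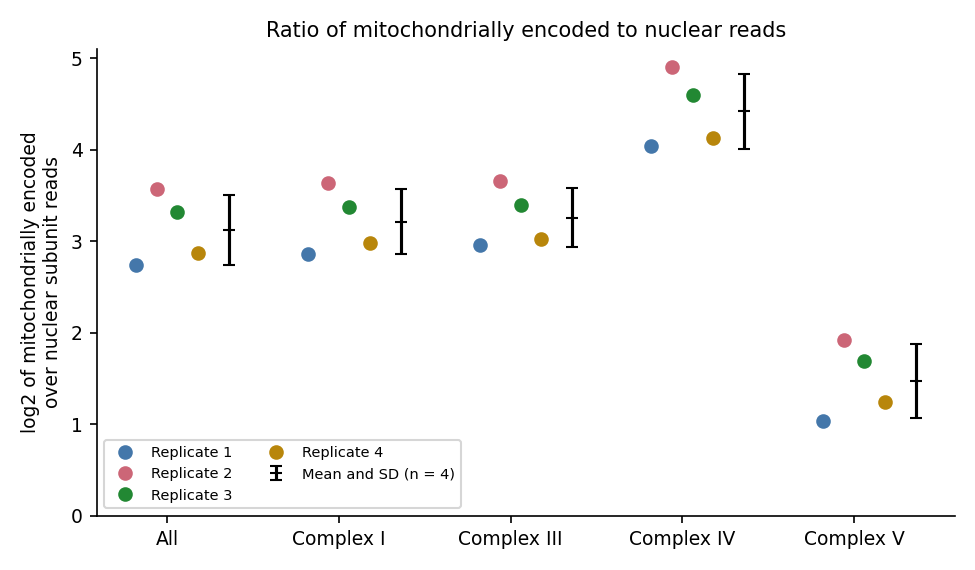
log2 ratio of mitochondrially encoded to nuclear subunit reads for all members and for complexes I, III, IV and V. Points are animals, and black marks are means with their SD (n = 4). Replicate 2 is highest and replicate 1 lowest in each complex.

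For the mitochondrially encoded part of the reads of complexes I, III, IV and V, the counting intervals did not overlap between animals. In complex V the mitochondrially encoded part of the complex's reads was 67.3% (95% Wilson interval 67.05% to 67.5%) in replicate 1 and 79.1% (95% Wilson interval 78.98% to 79.3%) in replicate 2. In complex III it was 88.6% (95% Wilson interval 88.5% to 88.8%) in replicate 1 and 89.03% (95% Wilson interval 88.9% to 89.2%) in replicate 4, where the intervals nearly met.

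Within the mitochondrial genome the mRNAs kept nearly constant proportions. After each animal was centred on its mean over the 13 genes, the median SD over genes was 0.06 (log2), against 0.35 before, and 10 of 13 genes had an SD under 0.1. Mt-atp6 was the most constant, with 11.3%, 11.6%, 11.6% and 11.7% of mitochondrially encoded reads. Mt-co1 took 32.6%, 31.8%, 31.2% and 31.7%. Mt-co2, which carries the copper site that accepts electrons from cytochrome c, took 7.25%, 8.88%, 9.31% and 8.49% and was lowest in replicate 1 (SD after centring 0.15). Mt-nd3, a small complex I subunit, took 0.815%, 0.796%, 0.947% and 0.869% and was highest in replicate 3. Mt-atp8, whose reading frame overlaps that of Mt-atp6, took 0.805%, 0.746%, 0.579% and 0.777%, with the largest SD of the 13 (0.22). Its log2 distance below Mt-atp6 was 3.81, 3.96, 4.33 and 3.91, largest in replicate 3. How reads in overlapping genes were counted is not given in the sources used here, so the division between Mt-atp6 and Mt-atp8, and between Mt-nd4 and Mt-nd4l, is uncertain. Mt-nd6, the only protein gene on the opposite strand, had 826, 1453, 1195 and 842 CPM. The use of strand in counting is not given either, so its reads cannot be told apart from antisense transcripts.

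**Figure D4:**
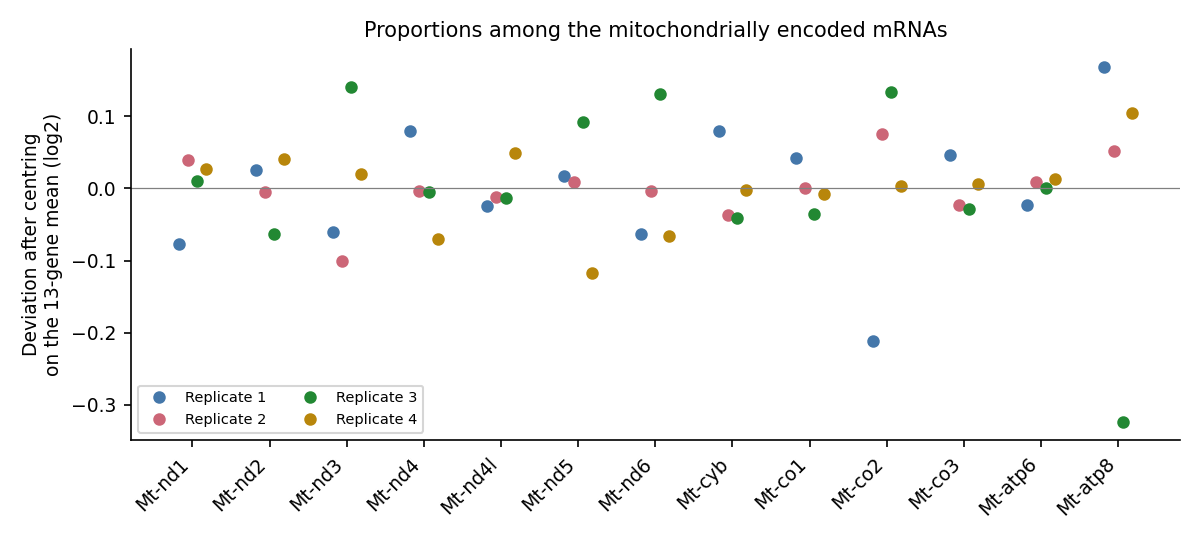
Deviation of each mitochondrially encoded mRNA from its own mean after each animal was centred on the 13-gene mean (log2). Points are animals. Mt-atp8 (-0.32 in replicate 3) and Mt-co2 (-0.21 in replicate 1) lie farthest from 0.

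All 13 mitochondrially encoded genes and 65 of the 79 nuclear rows (82.3%) varied between animals beyond Poisson counting error, as did 69.5% of all genes (chi-square test of the reads, with Benjamini-Hochberg adjustment across the whole table). The nuclear members had a median of 1392 reads against 439 over all genes, and deeper genes pass this test at a smaller spread. The 14 nuclear members that did not pass included Ndufa5 (adjusted p = 0.601), Sdhd (0.0753), Uqcrq (0.697), Cox4i2 (0.398) and Atp5mg (0.178). Against genes of like abundance, limma's trend test called 0 of the 92 members and 0% of all genes, and at an unadjusted p under 0.05 it called 0 members and 5.44% of all genes. The smallest adjusted p among members in that limma test was 0.954. For the most abundant mRNAs this comparison has little to draw on, since 9 of the 12 genes with a mean CPM at or above that of Mt-nd4 are themselves mitochondrially encoded.

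Other mitochondrial gene lists were set beside the members. All 13 measured citrate cycle enzymes were lowest in replicate 3, with a median of -0.19 there, and 11 were highest in replicate 1. Of all genes, 19.6% were lowest in replicate 3 and 27.7% highest in replicate 1. Idh3a, a subunit of isocitrate dehydrogenase, had 104, 83.4, 74.7 and 82.9 CPM. The citrate cycle genes thus had the nuclear subunits' low animal. Of 46 measured assembly factors, which build the complexes, 20 were lowest in replicate 3, against 19.6% of all genes. Of the 46, 21 (45.7%) varied beyond counting error, against 69.5% of all genes. The most and least read were the complex IV assembly factors Coa5, at 96.1 ± 8.50 CPM, and Coa6, at 4.13 ± 0.335 CPM (SD, n = 4). Of 6 carriers and pores, 5 were lowest in replicate 3. Slc25a3, the phosphate carrier, had 389, 357, 319 and 361 CPM, and Vdac3, an outer membrane pore, had 117, 118, 119 and 114 CPM. All 3 subunit or carrier genes that the symbol rule misses were highest in replicate 1 and lowest in replicate 3. Cyc1, the cytochrome c1 of complex III, had 184, 169, 149 and 174 CPM, and Cycs, cytochrome c itself, had 206, 173, 121 and 163 CPM. Ndufab1, the acyl carrier subunit of complex I, had 60.9, 55.3, 53.1 and 59.2 CPM.

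Of 16 genes for the upkeep and transcription of mitochondrial DNA, 10 were highest in replicate 2, against 21.3% of all genes. The median of the 16 was 0.11 there, and 4 were lowest there, against 31.5% of all genes. The summed level of the 16 was 401, 385, 376 and 381 CPM, highest in replicate 1. Of the 16, 9 (56.2%) varied beyond counting error, against 69.5% of all genes. Tfam, which packages mitochondrial DNA and takes part in starting its transcription, had 26.6, 30.4, 27.2 and 29.5 CPM. Polrmt, the mitochondrial RNA polymerase, had 41.1, 47.02, 40.1 and 44.7 CPM. Both were highest in replicate 2, but the spread of Tfam did not exceed counting error. Top1mt, the mitochondrial topoisomerase, had 92.4, 60.7, 79.9 and 82.98 CPM, and Mterf2, the least read of the list, had 3.17, 3.27, 3.39 and 3.61 CPM. Of 20 mitochondrial RNA processing genes, 12 were lowest in replicate 1, against 35% of all genes. Of the 20, 11 (55%) varied beyond counting error, against 69.5% of all genes. Fastk, the most read, had 83.3, 109, 117 and 108 CPM, and Ptcd2, the least read, had 6.41, 7.40, 7.17 and 7.48 CPM. Lrpprc, which stabilizes mitochondrial mRNAs, had 86.5, 91.5, 73.2 and 82.4 CPM. Among 11 nuclear regulators, 8 (72.7%) varied beyond counting error, against 69.5% of all genes, and the regulators' median in replicate 3 was 0.03. Sp1, a general activator, had 116, 106, 130.0 and 119 CPM. Ppargc1a, a coactivator of respiration genes, had 14.4, 10.9, 7.88 and 12.3 CPM, and its paralog Ppargc1b had 5.68, 5.80, 3.58 and 3.67 CPM. Nrf1 had 34.3, 39.9, 41.6 and 36.7 CPM and Yy1 had 71.9, 49.8, 62.9 and 62.2 CPM. Ppargc1a was lowest and Nrf1 highest in replicate 3. Of the 11 regulators, 4 (36.4%) were highest and 3 (27.3%) lowest in replicate 3, against 29.6% and 19.6% of all genes. Of 6 uncoupling proteins and alternative quinone enzymes, 4 (66.7%) varied beyond counting error, against 69.5% of all genes. The most and least read of the list were Ucp2, at 241 ± 40.4 CPM, and Slc25a14, at 6.17 ± 0.653 CPM (SD, n = 4).

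Cell type markers differed between the same animals. All 18 proximal tubule markers were detected, with at least 369 reads, and 17 (94.4%) were lowest in replicate 3, against 19.6% of all genes. The summed level of these markers was 10810, 8089, 5270 and 8021 CPM. That of the nuclear subunits was 11193, 10561, 9377 and 10331 CPM, and both sums were lowest in replicate 3. All 19 podocyte markers were detected and lowest in replicate 2, where the mitochondrially encoded mRNAs were highest, with summed levels of 17736, 10222, 13095 and 15967 CPM. Of all genes, 31.5% were lowest in replicate 2. The summed levels were 7410, 8758, 9791 and 8148 CPM for endothelial markers and 2527, 2873, 2963 and 3243 CPM for mesangial markers. The mesangial markers were split. Of the 9, 4 were highest in replicate 2, 4 were highest in replicate 4 and 4 were lowest in replicate 2, against 21.3%, 21.4% and 31.5% of all genes. Summed levels were 711, 548, 644 and 611 CPM for the thick ascending limb and distal nephron. This sum was highest in replicate 1, but 6 of 11 markers were lowest there, against 35% of all genes. For leukocytes the summed levels were 1079, 1386, 1364 and 1276 CPM, highest in replicate 2. Of the 9 leukocyte markers, 6 were highest in replicate 3, against 29.6% of all genes. For erythroid cells the summed levels were 963, 1200, 1746 and 1224 CPM. Measured were 11 of 12 listed endothelial, 9 of 10 mesangial, 11 of 12 distal, 9 of 10 leukocyte and 6 of 8 erythroid markers. The part of cell composition in the subunit values was not tested, and in bulk tissue fewer cells of a type and less RNA per cell cannot be told apart. The 7 listed mitochondrial rRNA and tRNA genes, which poly(A) selection captures only in part, took 0.165%, 0.308%, 0.317% and 0.179% of reads, a sum carried mostly by a few of them. Of the 7, 5 were highest in replicate 2 and 2 in replicate 3, against 21.3% and 29.6% of all genes. The part of RNA capture in the mitochondrial share was not tested.

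**Figure D5:**
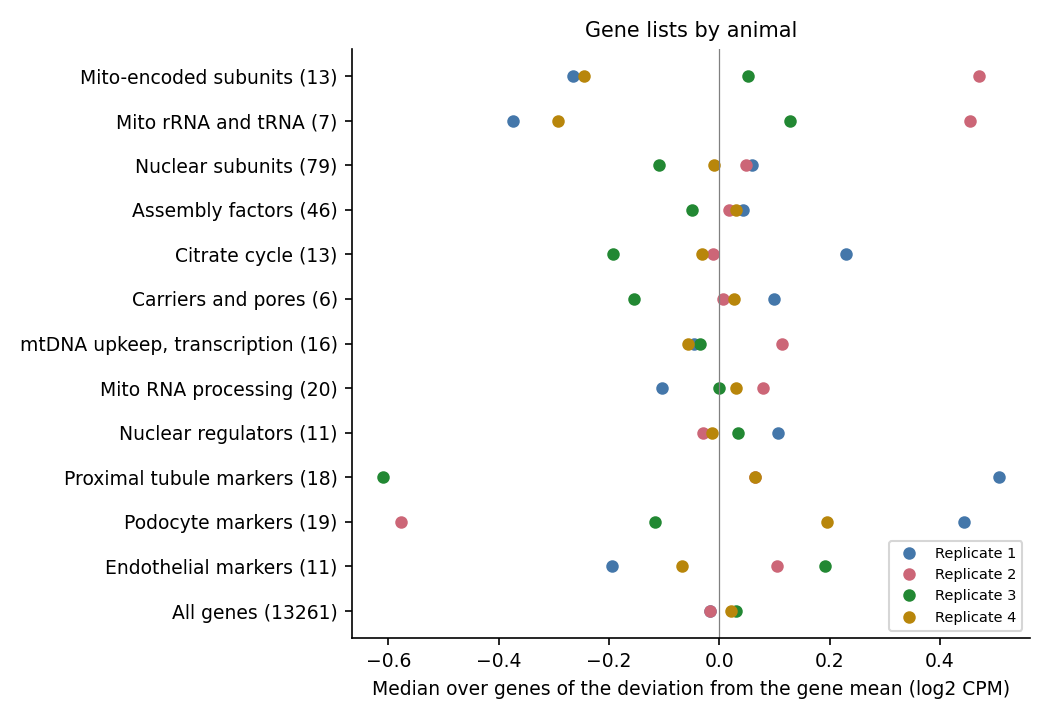
Median over genes of the deviation from the gene mean (log2 CPM) in each animal, for subunit genes, other mitochondrial lists, cell type markers and all genes, with the number of genes in parentheses. Nuclear subunits (-0.11), citrate cycle genes (-0.19) and proximal tubule markers (-0.61) have their lowest median in replicate 3.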

How the data were processed

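Per the labels' protocols, stranded poly(A) libraries of glomerular RNA were sequenced as paired ends. The submitters' processing notes name HISAT2, featureCounts, Subread, limma and Rnor_6.0, without roles or versions. The authors deposited log2 values for 13265 genes. In 4 rows the values are displaced between columns, and these were left out. The values themselves show log2 CPM with 0.5 reads added, since 100% gave whole reads within 0.01 reads. Recovered reads totalled 13566962, 16207027, 15348629 and 15244063 in replicates 1 to 4.

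Members and lists were chosen with earlier results of these data known. The rule for named genes took all mitochondrially encoded members, each complex's nuclear genes with the highest and lowest mean and SD, isoform sets, and each list's highest and lowest gene. Other genes were named for their role after their values were seen, as were the 10 motif spellings. Marker genes are given as sums, and some genes that the rule names are not reported here. Tests were an exact sign-flip test of ratios, a chi-square test with 3 degrees of freedom on recovered reads and limma's trend test (limma 3.58.1, R 4.3.3), the last pair over all 13261 genes and tested on simulated data. Other steps used Python 3.11.15, numpy 2.4.6, scipy 1.17.1 and pandas 2.3.3. Alternatives were other scalings, log2(CPM + 1) and log2(CPM + 5), a minimum of 1 CPM, a robust prior, other member choices and leaving out each replicate.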

Additional observations from a re-analysis of the deposited data

Results flagged for a closer look

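Of 99 results examined, 6 had a single animal far from the other 3, with a gap, divided by the range of the 4 values, above Dixon's 95% critical value. Chance gives about 1 in 20, here 4.95, and 5.08% of all genes met it. Replicate 1 was apart on the low side for Cox4i2 (0.917), whose spread did not exceed counting error. Replicate 2 was apart on the high side for Ndufa6 (0.841), Cox6c (0.867) and Uqcr11 (0.853). Ndufa6 had 63.98, 77.3, 65.9 and 65.2 CPM, Cox6c had 151, 177, 149.5 and 153 CPM and Uqcr11 had 131, 156, 130.2 and 127 CPM in replicates 1 to 4. Replicate 3 was apart on the low side for Uqcr10 (0.866), with 81.3, 81.2, 68.3 and 79.4 CPM, and for Atp5md (0.848), whose spread did not exceed counting error (adjusted p = 0.0859, chi-square test).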

How the results depend on the processing

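The log2 ratios moved by far more than the spread between animals when the median log2 value of each side replaced summed reads, to 5.96 over all members and to between 4.18 (complex V) and 6.54 (complex III) in the complexes. They stayed above 0. With the total taken over nuclear-encoded genes only, the mean share of nuclear subunits was 1.15% instead of 1.04%, and 22 instead of 34 nuclear genes were highest in replicate 1, where the share of all genes went from 27.7% to 23.9%. The median SD of the mitochondrially encoded genes before centring was 0.19 without replicate 2 and ranged from 0.19 to 0.42 over the animals left out, so much of their spread rested on that animal. Leaving out members under 1 CPM removed none. The ratio per kilobase was not run, because no transcript lengths were used here. No paired analysis was possible because a single group leaves no animals to pair across groups. Depth limits the genes of few reads, such as Cox4i2 and Atp5md.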
